A study of Drosophila melanogaster with 10 samples.

Results

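Testis RNA from a pair of germline knockdowns of Drosophila melanogaster was compared gene by gene: the Tektin-C-labelled libraries against the Klp59D-labelled ones. The 4 libraries were taken by their titles from the 10 of the study, and 13831 of the 17412 genes in the files passed the low-count filter and are called measured below. The study set RNA interference knockdowns of B9d1, Tektin-C and Klp59D and a mutant of sa beside wild-type (WT) testes, with 2 libraries in each of the 5 groups. Both knockdowns compared here carry a w background, bam-Gal4 and UAS-dicer2, and by the labels differ in the RNAi transgene alone, given as Klp59DRNAi in one and spelled Tekin-CRNAi or Tekin-CRNAiRNAi in the other. Both are labelled as enriched for mature spermatocytes, as is the sa-/- mutant. The B9d1 knockdown, of the same driver, is labelled as enriched for young spermatocytes, and WT as holding every male germ cell stage. For each library 100 pairs of testes were pooled, from adults under 2 days of age. The 3 knockdowns grew at 22°C for 3 days and then at 30°C for 8 days, WT grew at 22°C for 10 days and the sa mutant at 22°C for 12 days. The driver acts in late spermatogonia, so earlier germ cells and the somatic cells of the testis lie outside its reach.

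In the fly testis, stem cells at the tip give rise to spermatogonia, which divide and then become spermatocytes. Spermatocytes grow for days and transcribe most of the genes that build sperm, under the testis-specific complex tMAC and the testis TAFs, of which sa is one. Meiosis follows, and the haploid spermatids then assemble the flagellar axoneme, reshape their mitochondria and repack their chromatin. Tektin-C belongs to the tektins, filaments that run along the microtubule doublets of the axoneme. Klp59D is a kinesin of a family that takes microtubules apart at their ends.

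The transcripts of both target genes went against the labels. Tektin-C (FBgn0035638; dm6 3L, 5794405 to 5796543, minus strand) measured 201 and 204 CPM, the count relative to the scaled library total, in the Tektin-C-labelled libraries and at 12.7 and 11.6 CPM in the Klp59D-labelled ones. It was 16.7-fold higher in the first (95% interval 15.5 to 18.1), where its level was close to the 221 CPM of WT and the 171 CPM of the B9d1 knockdown. Klp59D (FBgn0034827; 2R, 23141999 to 23144497, plus strand) stood at 29.3 and 30.0 CPM in the Tektin-C-labelled libraries and at 333 and 337 CPM in the Klp59D-labelled ones, against 340.3 CPM in WT. It was 11.3-fold lower in the first (10.7 to 11.9). Each transcript was thus near its WT level in the libraries that carry its name as the target and far below it in the others. Every direction below follows the labels of the libraries and not the transcripts. The other genes targeted in the study differed less. B9d1, a protein of the ciliary transition zone (FBgn0038342; 3R, 15481906 to 15482904, plus strand), was at 151 and 159 CPM against 173 and 170.

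**Figure D1:**
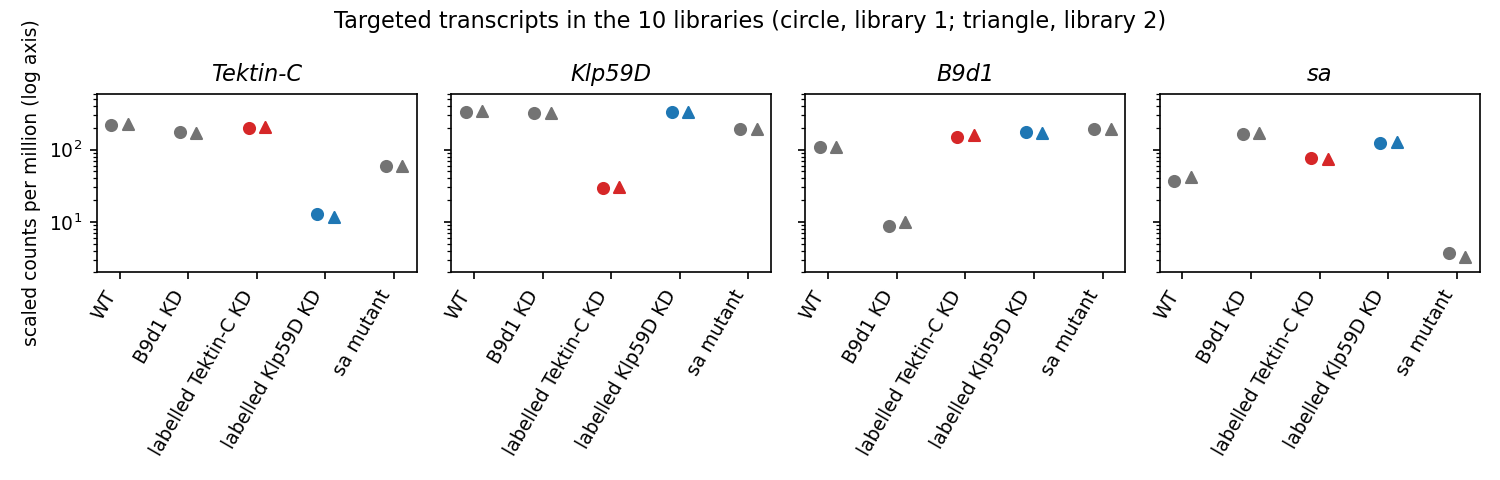
Scaled CPM (log axis) of the 4 targeted transcripts in each of the 10 libraries; red marks the Tektin-C-labelled libraries, blue the Klp59D-labelled ones and grey the other groups. Tektin-C is low in the blue libraries (12.7 and 11.6) and Klp59D in the red ones (29.3 and 30.0), the reverse of the labels.

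Library totals ran from 24690735 to 30798942 counts in the 4 libraries and from 17621525 to 30798942 in all 10. Over the 8992 to 9468 genes of the main check, which left out the least and the most counted genes, the 2 libraries of each group differed by little more than the counting noise. The median squared deviation of a gene was 1.03 to 1.08 times the binomial expectation within groups and 36.0 times between the first library of each knockdown. Nothing in the labels says that they came from separate flies, so they were summed and counted as 1 sample per group, and no p-value is given. Each difference is thus one between samples of single pools, and its exact (Clopper-Pearson) 95% interval covers counting error only. In whole testes, fewer cells of a type and less RNA per cell cannot be told apart. The scaling matters here: scaled by library size alone, the whole set of genes had a median log2 fold of -0.47 in place of -0.04, so each list is read against the median of all genes. The germ line was present in all 4 libraries. The tMAC subunit gene aly stood at 58.3 and 60.6 CPM in the Tektin-C-labelled libraries and at 78.6 and 78.7 CPM in the Klp59D-labelled ones. The comet gene schuy, of a group known for transcription in elongating spermatids, after the stage in the labels, was at 632 and 622 CPM against 293 and 296, with 369 CPM in WT.

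Of the 13831 genes, 2937 (21.2%) were at least 2-fold apart: 2004 (14.5%) were higher in the Tektin-C-labelled libraries and 933 (6.75%) lower. Scaling by library size alone turned the split to 1013 higher and 2587 lower. Counts of list members below are to be read against the 14.5% higher and 6.75% lower of all genes. At least 4-fold apart were 343 higher and 230 lower genes, and at least 8-fold 22 and 15. These counts use log2 folds with a prior count of 2, which draws in the folds of genes with few counts. On that scale 4 genes reached 16-fold, all higher, and 3 of them were at low levels: CG32036 at 11.1 and 9.73 CPM against 0.586 and 0.493, Gcat, a glycine acetyltransferase gene, at 6.29 and 7.49 against 0.293 and 0.428, and lncRNA:CR46008, on the strand opposite pros, at 3.68 and 3.23 against 0.220 and 0.0987. The fourth was Tektin-C. These 3 were singled out after their values were seen. Among the 938 genes with a mean log2 CPM of at least 8, 256 (27.3%) were higher and 7 (0.746%) lower. The 2004 higher genes took 32.0% of all counts in the Tektin-C-labelled libraries, 17.1% in the Klp59D-labelled ones, 33.6% in WT and 5.21% in the sa mutant. Counted in this way, the comparison was the second smallest of the 10 between the study's groups, after the 1855 genes between the Klp59D-labelled libraries and the B9d1 knockdown; the sa mutant and WT were 7490 genes apart.

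**Figure D2:**
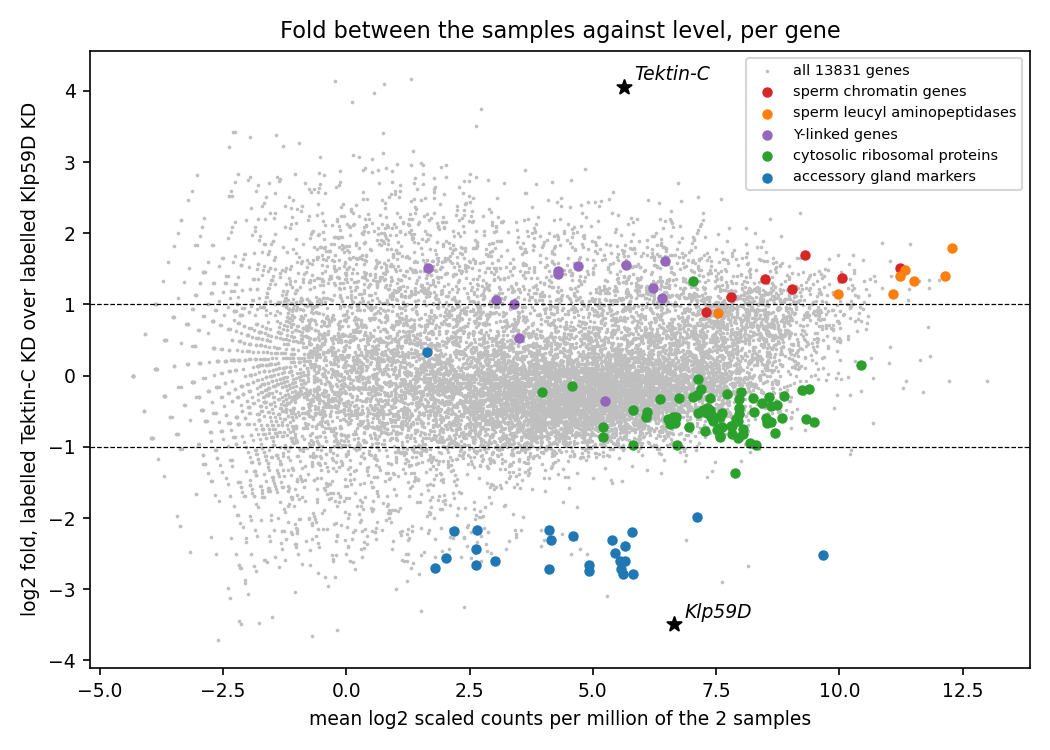
Log2 fold of the Tektin-C-labelled libraries over the Klp59D-labelled ones against the mean log2 scaled CPM of both samples, 1 point per gene; dashed lines mark 2-fold. Sperm chromatin genes, sperm leucyl aminopeptidases and Y-linked genes lie mostly above the upper line, cytosolic ribosomal proteins mostly between 0 and the lower line, and 24 of the 25 accessory gland markers below it.

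Genes of the sperm itself were higher in the Tektin-C-labelled libraries. Among 7 sperm chromatin genes, whose products replace histones in the sperm head, 6 were higher by at least 2-fold and none lower, with a median log2 fold of 1.36 against -0.04 for all genes. Mst77F, a linker-histone-like protein, stood at 4039 and 4059 CPM in the Tektin-C-labelled libraries and at 1414 and 1424 CPM in the Klp59D-labelled ones. ProtB, a protamine, was at 1124 and 1138 CPM against 349 and 351, a 3.23-fold difference (3.18 to 3.28). The transition protein gene Tpl94D was at 582 and 566 CPM against 222 and 225. In each of these the libraries of one sample lay wholly above those of the other. That adds no support, as the 2 libraries of a sample are near repeats. The HMG-box genes tHMG1 and tHMG2 were 2.33-fold and 2.59-fold higher, but they are similar copies between which reads could be split. Reads of Mst77F could likewise be split with the Mst77Y genes of the Y. Mst77Y-7 was at 57.8 and 56.5 CPM against 29.1 and 30.9. The other genes of this list, ProtB among them, were not checked for similar copies. With library size alone 2 of the 7 genes were at least 2-fold higher.

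The sperm leucyl aminopeptidases, which form much of the paracrystalline material in the sperm mitochondrial derivatives, included 7 of 8 members at least 2-fold higher and none was lower (median log2 fold 1.37). S-Lap7 stood at 9207 and 9313 CPM in the Tektin-C-labelled libraries and at 2666 and 2673 CPM in the Klp59D-labelled ones, 3.47-fold apart (3.45 to 3.49), with 9088 CPM in WT. S-Lap1 was at 7352 and 7353 CPM against 2793 and 2788. The 8 genes summed to 34341 and 34476 CPM against 12588 and 12568. These are similar copies, so single values are less certain than the sum. Library size alone left 2 of 8 at least 2-fold higher.

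Of 7 sperm tail genes of the Mst84D, Mst87F and Mst98C group, which encode small cysteine-rich proteins of the sperm tail, 5 were at least 2-fold higher and none was lower (median log2 fold 1.24; 1 of 7 with library size alone). Mst84Db stood at 1783 and 1812 CPM against 553 in each of the other libraries, 3.25-fold higher (3.21 to 3.29), while WT held 8374 CPM. Mst87F, which overlaps a noncoding RNA on the other strand, was at 1299 and 1301 CPM against 485 in both, with 3225 CPM in WT. Both samples thus lay well below WT in these genes, unlike in Mst77F, which was at 3646 CPM in WT. Of 10 genes of the don juan group, 3 were at least 2-fold higher and none was lower (median 0.89; 1 higher with library size alone). Mst33A was the furthest apart, at 1267 and 1288 CPM against 463 in both, and don juan (dj) itself, which encodes a sperm tail and mitochondrial protein, was at 1194 and 1186 against 632 and 631.

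Genes known for transcription after meiosis lay on the same side. Of 9 cup genes, 4 were at least 2-fold higher (median log2 fold 0.97), and of 8 measured comet genes of the 11 matched, 2 were (median 0.75); none of either group was lower by that much. The cup gene w-cup stood at 1550 and 1555 CPM in the Tektin-C-labelled libraries and at 504 and 491 CPM in the Klp59D-labelled ones. The comet gene sunz was at 134 and 132 CPM against 52.0 and 49.8. All 17 of these genes had a log2 fold above 0, from 0.44 to 1.72. With library size alone 3 cup genes and no comet gene were 2-fold higher, at medians of 0.53 and 0.31.

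**Figure D3:**
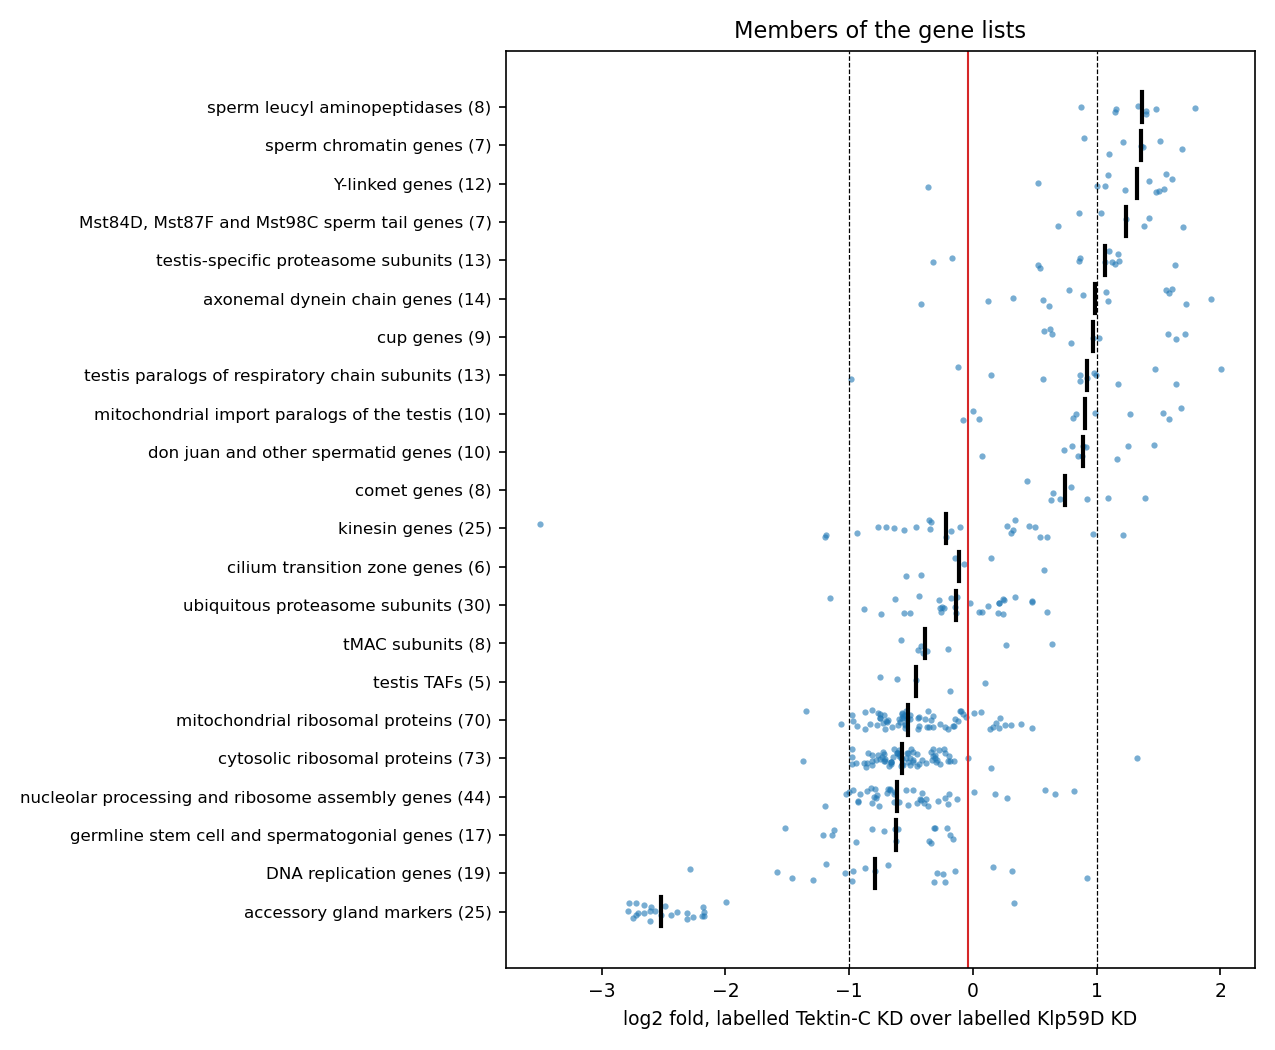
Log2 fold of the Tektin-C-labelled libraries over the Klp59D-labelled ones for each measured member (blue points, number in brackets) of 22 gene lists, with the list's median (black bar), the median of all genes (red line) and 2-fold (dashed lines). Sperm and spermatid lists lie right of the red line, with medians of 0.75 to 1.37, and the accessory gland markers stand apart on the left at a median of -2.52.

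Axoneme genes went the same way. Of 14 axonemal dynein chains, the motors that bend the flagellum, 7 were at least 2-fold higher and none was lower (median log2 fold 0.98; 5 with library size alone). The light chain gene robl37BC stood at 253 and 265 CPM in the Tektin-C-labelled libraries and at 69.2 and 67.3 CPM in the Klp59D-labelled ones, and robl62A was at 802 and 773 against 266 and 258. The intermediate chain gene Dic3 was 3.30-fold higher (3.10 to 3.52). Dhc98D, a heavy chain, was within 2-fold at 1.71-fold. The 9 tektin, radial spoke and nexin link genes (median 0.85) included 3 at least 2-fold higher and none lower, and with library size alone 1 higher and 1 lower. One of the 3 is Tektin-C. The other members at that threshold were Ccdc39 (534 CPM in both libraries against 258 and 259) and Gas8 (144 and 147 against 72.9 and 69.6), both of the nexin link and its ruler. Tektin-A, the other tektin of the list, was at 483 and 482 CPM against 265 and 269, a 1.81-fold difference (1.77 to 1.84) that is far from the 16.7-fold of Tektin-C. Ccdc114, of the outer dynein arm dock, was lower at 33.4 and 32.0 CPM against 61.9 and 63.2, and at 0.621 CPM in WT.

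Some of the Y-linked genes are needed for sperm motility, and several span huge introns that spermatocytes transcribe for days. Of 12 measured, 10 were at least 2-fold higher and none was lower (median log2 fold 1.33; 5 with library size alone). The dynein heavy chain gene kl-5 stood at 152 and 156 CPM in the Tektin-C-labelled libraries and at 50.2 and 50.7 CPM in the Klp59D-labelled ones, 3.06-fold apart (2.93 to 3.19), with 101 CPM in WT. kl-2 was at 88.4 and 86.9 CPM against 29.2 and 30.1, and kl-3 at 122 and 124 against 58.1 and 56.9. Both kl-2 and kl-5 were also counted among the dynein chains above. Pp1-Y2, a phosphatase gene, was at 42.5 and 45.5 CPM against 15.2 and 14.9. FDY was the exception, at 34.8 and 32.0 CPM against 42.0 and 43.4. Over all 23 measured genes of the Y, which include these 12, 14 (60.9%) were at least 2-fold higher. The share was 8.03% of 2068 genes on the X and 13.6% to 18.6% on the arms of chromosomes 2 and 3. The added Y genes include pseudogenes and repeats, some near the floor. Su(Ste):CR41533, called higher, was at 0 and 1.83 CPM against 0 and 0.197. Like all counts of higher genes, the Y share depends on the scaling.

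All 3 testis-specific subunits of the gamma-tubulin complex, which nucleates microtubules, were at least 2-fold higher, while none of the other 8 members of that list was. t-Grip128 was at 80.4 and 73.1 CPM against 20.9 and 21.9, t-Grip91 at 534 and 531 against 191 and 189.9, and t-Grip84 at 817 and 802 against 309 and 311. The general subunit gene Grip91 had a log2 fold of -0.58. With library size alone 2 of the 3 testis members were 2-fold higher. Of 9 tubulin genes, 3 were at least 2-fold higher: betaTub85D, the beta-tubulin of the meiotic spindle and axoneme, at 4152 and 4157 CPM against 1784 and 1791, betaTub65B and alphaTub85E. None of the 9 was 2-fold higher with library size alone, and 1 was lower. alphaTub84B, the main alpha-tubulin of most cells, was at 1615 and 1610.2 CPM against 1651 and 1653.

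Of 25 kinesin genes, 1 was at least 2-fold higher and 3 lower, with a median log2 fold of -0.22. Klp59D was one of the lower ones, and the other two, Kif19A and Klp54D, were below 3 CPM in all 4 libraries. The higher one was Klp10A, which depolymerizes microtubules as Klp59D does, at 442 and 439 CPM against 193 and 188 (2.32-fold, 2.27 to 2.37). Klp59C, of the same family, was at 606 and 600.05 CPM against 312 and 304. Both family members were thus on the opposite side from Klp59D. Klp10A was at 378 CPM in the B9d1 knockdown, and its log2 fold was under 1 with library size alone.

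Genes that lie beside the targets on the chromosome were checked in a window of 10000 bases on either side. None of the 3 measured neighbours of Tektin-C was 2-fold apart, with log2 folds of -0.15 to 0.12. Of the 4 neighbours of Klp59D, 2 were at least 2-fold higher. CG13544, whose span ends 1422 bases away, on the other strand, stood at 1182 and 1167 CPM in the Tektin-C-labelled libraries and at 439 and 437 CPM in the Klp59D-labelled ones. CG43207 was below 0.6 CPM throughout. The direction of both was opposite to that of Klp59D.

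Cilium and centriole genes were within 2-fold. None of the 6 measured genes of the transition zone, the compartment of the cilium base in which B9d1 acts, was 2-fold apart (median log2 fold -0.11). Cep290 was the highest of them at 0.58 and Mks1 the lowest at -0.54. None of 15 centriole and basal body genes was either, with log2 folds from -0.61 for Sas-4, a centriole assembly gene, to 0.63 for Cep97.

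Among proteasome and mitochondrial genes the testis copies were higher more often than the general ones, a difference given as counts and not tested. Of 13 testis-specific proteasome subunits, 7 were at least 2-fold higher and none was lower (median log2 fold 1.07; 1 with library size alone). Prosbeta5R1 stood at 92.2 and 88.2 CPM in the Tektin-C-labelled libraries and at 29.1 and 29.0 CPM in the Klp59D-labelled ones. Of 30 subunits used in all cells, none was 2-fold higher and 1 was lower (median -0.13). In the caspase and Cullin-3 pathway, which removes spermatid cytoplasm, 2 of 11 members were at least 2-fold higher and 1 lower (median 0.70), and with library size alone 1 and 2. Of all genes, 14.5% were higher and 6.75% lower. The substrate adaptor gene klhl10 was at 86.3 and 79.0 CPM against 25.2 in both, and Roc1b, whose product joins Cullin-3, at 108 and 115.3 against 51.0 and 50.4. The effector caspase gene Dcp-1 was the lower one, at 8.90 and 10.4 CPM against 27.1 and 25.9. Roc1b and Dcp-1 overlap genes on the other strand.

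Of 10 mitochondrial import genes with testis paralogs, the 4 that were at least 2-fold higher were all testis copies, and none was lower (median log2 fold 0.91; 3 with library size alone). tomboy40, the testis copy of an outer-membrane channel, was at 496 and 484 CPM against 163 and 162, while its general counterpart Tom40 had a log2 fold of 0.00. Tim17a1, of the inner-membrane channel, was at 95.6 and 93.4 CPM against 30.4 and 28.3. Of 13 testis paralogs of respiratory chain subunits, 4 were higher and none lower by 2-fold (median 0.92). They were ATPsynCF6L, ND-24L, ND-51L2 and UQCR-6.4L, the last at 48.4 and 48.7 CPM against 12.2 and 12.0. None of 32 general subunits of the NADH dehydrogenase was 2-fold apart (median 0.04). fzo, which fuses spermatid mitochondria, was at 735 and 732 CPM against 349.6 and 347, above the 122 CPM of WT in both samples. It was the 1 gene of 10 of mitochondrial fusion at least 2-fold higher, and none was with library size alone.

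None of 8 tMAC subunits (median log2 fold -0.38) and none of 5 testis TAFs (median -0.46), the regulators of the spermatocyte program, was 2-fold apart. Scaled by library size alone, 1 of the 8 and 2 of the 5 were at least 2-fold lower, at medians of -0.82 and -0.90. sa (3L, 21405425 to 21406738, minus strand) had 76.4 and 74.6 CPM in the Tektin-C-labelled libraries, below the 125 and 129 CPM of the Klp59D-labelled ones, a log2 fold of -0.75. can was at 33.1 and 33.5 CPM against 51.0 and 50.7, and mia, another testis TAF, at 164 and 165 against 151 and 156. Of 9 genes of meiotic entry and translational timing, CycB3 was the 1 gene at least 2-fold higher, at 130 and 132 CPM against 65.0 and 62.5. The median of those 9 was 0.26, and -0.18 with library size alone, where CycB3 was no longer 2-fold apart and 1 other member was lower. The phosphatase gene twe, needed to enter meiosis, had a log2 fold of 0.03.

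Genes were also grouped by their level in the sa mutant against WT. The sa mutant and WT share no library with the knockdowns. Of the 1237 genes (8.94%) at least 8-fold lower in the sa mutant than in WT, 877 (70.9%) were at least 2-fold higher in the Tektin-C-labelled libraries and 8 (0.647%) lower, with a median log2 fold of 1.30. Those 877 were 43.8% of the 2004 higher genes. With library size alone the higher genes fell from 2004 to 1013 over all genes, and the lower rose from 933 to 2587. The shares in this paragraph thus depend on the scaling. Among the 2596 genes 2- to 8-fold lower in the sa mutant, 24.7% were higher, and among the 6341 within 2-fold, 5.57%. At the other end, of the 1502 genes (10.9%) at least 4-fold higher in the sa mutant than in WT, 438 (29.2%) were at least 2-fold lower in the Tektin-C-labelled libraries and 60 higher. These made up 46.9% of the 933 lower genes. Gland RNA, described below, runs in the same directions. The accessory gland markers summed to 53.0 CPM in WT and 1918 in the sa mutant. They summed to 670 CPM in the Tektin-C-labelled sample and 3718 in the Klp59D-labelled one. Listed gland markers were 24 of the 933 lower genes. How far other gland RNA makes up the 438 genes was not tested. Of the 2004 higher genes, 75.8% were among the 27.7% of all genes at least 2-fold lower in the sa mutant, and of the 933 lower ones 65.6% were among the 26.4% at least 2-fold higher in it.

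**Figure D4:**
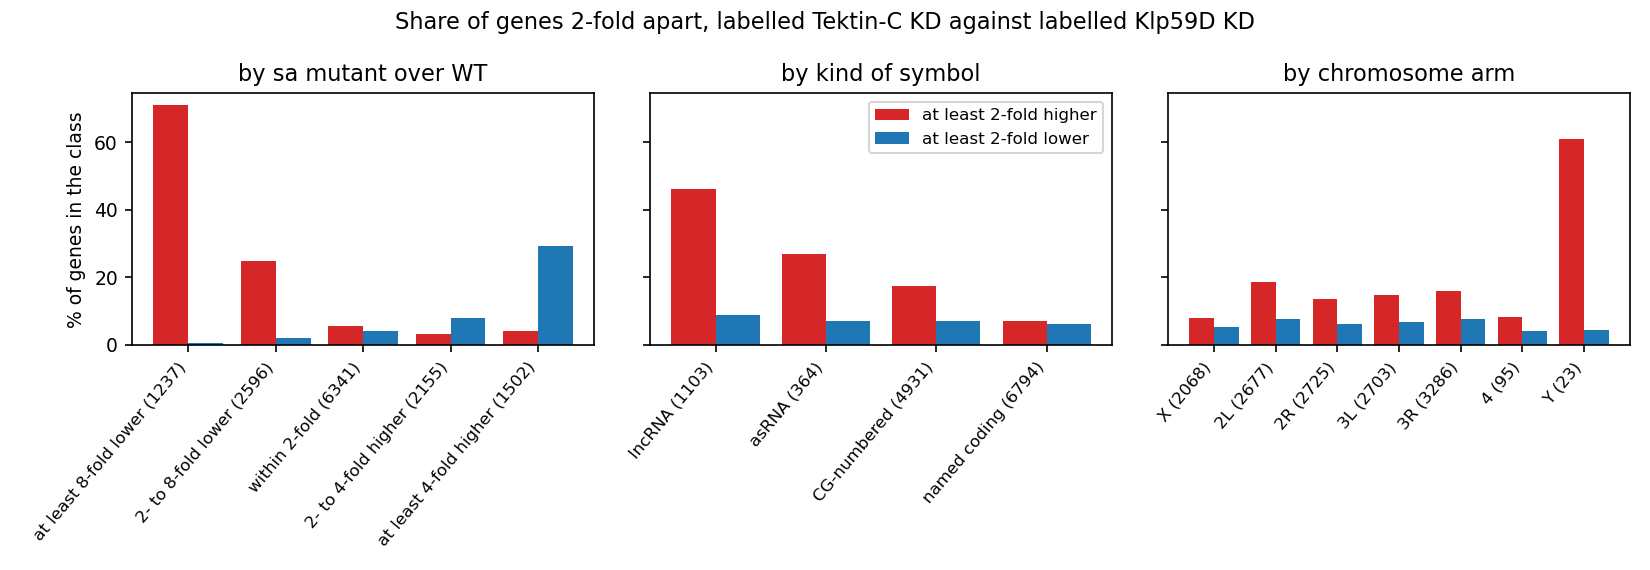
Percent of genes at least 2-fold higher (red) or lower (blue) in the Tektin-C-labelled libraries than in the Klp59D-labelled ones, by the sa mutant over WT, by kind of gene symbol and by chromosome arm, with the number of genes in brackets. The red bar falls from 70.9% of the genes at least 8-fold lower in the sa mutant to 5.57% of those within 2-fold, and stands at 46.1% for lncRNA genes and at 60.9% for Y-linked genes.

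Set beside WT, the 2004 higher genes were below WT in both samples in 906 cases, above WT in both in 299 and on either side of it in 799. The 933 lower genes were above WT in both samples in 662 cases, below it in both in 90 and on either side in 181. In the B9d1 knockdown, 1199 of the 2004 higher genes were at or below the lower of the 2 samples. A further 752 lay between the 2 samples and 53 at or above the higher. Of the 933 lower genes, 195 were at or below both samples there, 423 between them and 315 at or above both. The same places are not given for all measured genes, so these counts have no background to be read against. WT and the knockdowns also differ in temperature and days of growth, which cannot be told apart from genotype there. By the labels the 2 knockdowns compared here do not differ in either.

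Genes of early germ cells were on the lower side. All 17 stem cell and spermatogonial genes had a log2 fold under 0 (median -0.62), 4 of them lower by at least 2-fold and none higher. zpg, the germline gap junction gene, was at 4.56 and 4.42 CPM against 12.3 and 13.5. The piRNA gene aub was at 11.7 and 12.8 CPM against 28.7 and 28.03, qin at 19.5 and 20.7 against 44.5 and 43.5, and nanos, a translational repressor of stem cells, at 9.70 and 10.4 against 22.1 and 22.2. The last 3 overlap genes on the other strand. Of 19 DNA replication genes, 6 were at least 2-fold lower and none higher (median -0.79): Cdc6, RnrL, Mcm7, PolA1, Mcm2 and dup. Cdc6, which licenses replication origins, was at 1.90 and 2.75 CPM against 11.4 and 11.8 (4.95-fold lower, 4.05 to 6.10), with 2.10 CPM in WT and 11.8 CPM in the B9d1 knockdown. RnrL, of ribonucleotide reductase, was at 5.85 and 7.33 against 21.1 and 19.0. With library size alone 10 of the 17 and 11 of the 19 were at least 2-fold lower. Of 19 division kinases and checkpoint genes, none was lower by 2-fold and CycB3, also counted above, was higher.

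Ribosome genes were shifted together but by less than 2-fold. Of 73 cytosolic ribosomal proteins, 71 had a log2 fold under 0, with a median of -0.58 against -0.04 for all genes, yet only RpL6 was at least 2-fold lower and RpL10Ab higher. RpL6 was at 146 and 148 CPM against 373 and 385, and RpL10Ab, which overlaps CG32095, at 211 and 204 against 82.3 and 82.6. The 73 genes summed to 14971 and 15109 CPM against 20908 and 21212, with 28328 CPM in WT. Of 44 nucleolar processing and ribosome assembly genes, 38 had a log2 fold under 0 and 2 were at least 2-fold lower, Rrp46, which overlaps CG6345, and Dbp73D (median -0.61). Of 11 RNA polymerase I genes, Polr1B and TAF1B were at least 2-fold lower and Polr1C higher (median -0.44), the last 2 overlapping other genes. By library size alone 4 of the 11 were lower and none higher. Of 70 mitochondrial ribosomal proteins, 2 were lower and none higher by 2-fold (median -0.52). The lower count was 4 of 70 without the first Tektin-C-labelled or the second Klp59D-labelled library, and for the nucleolar list 4 of 44 without the second Tektin-C-labelled library and 3 without the second Klp59D-labelled one. For the 73 cytosolic proteins it was 2 with either of the Tektin-C-labelled libraries left out. With library size alone, 39 of 73, 23 of 44 and 28 of 70 members of these lists were at least 2-fold lower. The RNA guides of ribosome modification did not shift in that way, with medians of 0.01 over 56 box C/D and 0.14 over 105 box H/ACA snoRNAs (-0.43 and -0.30 with library size alone). Among 12 ribosomal protein paralogs of the germ line and testis, 3 were at least 2-fold higher (none with library size alone), of which RpL10Aa was the most abundant at 356 and 350.1 CPM against 158 and 153. Of 27 translation factors, the initiation factor gene eIF4E4 was higher, at 1050.2 and 1053 CPM against 336 and 330.3, and eIF4E6 lower.

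Among genes picked by size of fold alone, at a mean log2 CPM of at least 4, the 9 named genes after Tektin-C with the largest values were Arr1, alphaKap4, Acyp, Pfdn6, SdhCL, twi, Parp16, UQCR-6.4L and lobo. Arr1, an arrestin known from photoreceptors, was at 44.8 and 47.5 CPM against 6.37 and 7.53 (6.62-fold, 5.95 to 7.38), with 31.4 CPM in WT. alphaKap4, an importin, was at 82.4 and 85.4 CPM against 14.98 and 15.5, and Acyp, an acylphosphatase gene, at 76.2 and 76.9 against 14.3 and 13.8. Pfdn6, a subunit of the prefoldin chaperone of actin and tubulin, was at 216 and 214 CPM against 42.3 and 44.2. It was the lowest of the 5 groups in the Klp59D-labelled libraries, with 137 CPM in the B9d1 knockdown and 166 CPM in the sa mutant. lobo, a flagellar gene, was at 371 CPM in both libraries against 92.0 and 94.3, and at 2.60 CPM in the sa mutant. twi, a mesoderm transcription factor, shares its span with CG9897 and an antisense RNA. Among genes known by CG number, CG14000 (which overlaps bchs), CG3748, CG34283, CG5265 and CG4716 had the largest folds, 5.68 to 6.77. CG34283 was at 102 and 106 CPM against 19.2 and 15.5, with 26.3 CPM in WT, 21.4 CPM in the B9d1 knockdown and 110.4 CPM in the sa mutant.

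Long noncoding RNAs were higher more often than coding genes. Of 1103 genes annotated as lncRNA, 509 (46.1%) were at least 2-fold higher and 97 lower, with a median log2 fold of 0.85, against 492 (7.24%) and 426 (6.27%) of 6794 named coding genes. Between them lay 364 antisense RNAs, of which 26.9% were higher, and 4931 CG-numbered genes, of which 17.5% were. Over all 11725 protein-coding genes, 1354 (11.5%) were higher and 779 (6.64%) lower. Of the 922 lncRNA genes that overlap no gene on either strand, 49.2% were higher, so the share was no smaller without overlapping genes. Most lncRNAs were low, but of the 83 at a mean log2 CPM of at least 4, 33 (39.8%) were higher, against 12.9% of all 6885 genes at that level. lncRNA:CR44601 was at 179.6 and 174 CPM against 39.2 and 37.6, with 160.0 CPM in WT and 5.18 CPM in the sa mutant. lncRNA:CR46017 was at 93.2 and 95.5 CPM against 16.9 and 16.7, with 13.9 CPM in WT and at most 6.33 CPM in the other groups. lncRNA:CR44389 went the other way, at 11.5 and 11.2 CPM against 37.9 and 40.2. These examples were chosen after their values were seen. The shares of each class also depend on the scaling, as library size alone left 1013 higher genes of all kinds in place of 2004.

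Of the lists described here, the median furthest from that of all genes belonged to markers of the accessory gland, which lies beside the testis and makes seminal fluid proteins. Of 25 measured, 24 were at least 2-fold lower in the Tektin-C-labelled libraries and none higher, with a median log2 fold of -2.52, and the 24 were also lower with library size alone. Acp36DE, a sperm storage protein, stood at 341 and 340.3 CPM in the Tektin-C-labelled libraries and at 1947 and 1956 CPM in the Klp59D-labelled ones, 5.73-fold lower (5.64 to 5.82). Acp76A was at 17.7 and 19.2 CPM against 127 and 128, Mst57Db at 22.2 and 20.4 against 148 and 145, and Acp26Aa, an ovulation-inducing protein, at 19.2 and 17.62 against 119 and 123. The 24 genes fell within a narrow span of log2 folds, -2.78 to -1.99. The 25 genes summed to 673 and 668 CPM in the Tektin-C-labelled libraries, 3711 and 3724 in the Klp59D-labelled ones, 656 in the B9d1 knockdown, 53.0 in WT and 1918 in the sa mutant, so no group was free of them. They took 0.0546% of counts in the first and 0.411% in the second.

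Of the 10 named genes lowest by fold, 8 were accessory gland markers, and the others were Klp59D and msopa. The msopa transcript was at 12.9 and 13.8 CPM against 114.6 and 116. It was at 0.517 CPM in WT, 14.5 in the B9d1 knockdown and 67.9 in the sa mutant. Like the sum of the gland markers, it was thus lowest in WT and highest in the Klp59D-labelled libraries. Whether it came from the gland was not tested. Among CG-numbered genes CG17097, CG43147, CG31872, CG18284 and CG42852 were lowest. CG17097 was at 76.3 and 68.8 CPM against 547 and 531. CG31872, on 2L with CG18284 between it and CG17097, was at 112 in both against 720.1 and 705. CG17097 and CG31872 were under 3 CPM in WT, and in the sa mutant they were at 192 and 219 CPM. Of 8 ejaculatory duct and bulb markers, 3 were at least 2-fold lower and none higher (median log2 fold -0.52). Without the second Tektin-C-labelled library 4 were lower, at a median of -0.82. The 3 were lectin-46Ca, lectin-46Cb and Dup99B, and of these the lectins are known to act with sex peptide in mated females. EbpIII, the most abundant protein gene of the ejaculatory bulb in the list, had a log2 fold of -0.14. The part of gland RNA in the other results was not tested.

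Markers of other cells of the testis and its surroundings were also counted, beside the 14.5% higher and 6.75% lower of all genes. Of 16 hub and cyst cell markers, 1 was at least 2-fold higher and 1 lower, with a median log2 fold of -0.01 and summed levels of 546 and 545 CPM against 607 and 612. The higher call was lost with library size alone. The hub ligand gene upd1 was the higher, at 4.34 and 5.66 CPM against 2.02 and 2.11, and Nrt, which encodes an adhesion protein and overlaps mus302, the lower, at 13.5 and 13.1 against 39.8 and 39.3. Of 14 muscle markers, Act87E and Act79B, both actins, were at least 2-fold higher and none was lower (median -0.20; 1 with library size alone). Act87E was at 932 and 945 CPM against 349 and 349.7, but it overlaps a noncoding RNA, and Mhc, muscle myosin, had a log2 fold of -0.25. Of 10 fat body and hemocyte markers, 3 were at least 2-fold higher and 1 lower (median 0.67), with sums of 871 and 874 CPM against 584 and 588. The count of 3 became 2 without the first Tektin-C-labelled library or the second Klp59D-labelled one, 1 without the second Tektin-C-labelled library and 0 with library size alone. The median was 0.22 over 12 genes with no low-count filter. The 3 were Hml, NimC1 and apolpp, of which Hml, a hemocyte clotting protein, was at 58.7 and 57.5 CPM against 23.6 and 24.6. Their part in the results was not tested.

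Of 20 measured immune effector genes, 9 were at least 2-fold higher and 1 lower (median log2 fold 0.58), all at low levels. Several passed the low-count filter through other groups: filtered on the 4 compared libraries, 14 were measured, of which 5 were higher and none lower. Of the 11 over 5 CPM in at least 2 libraries, 3 were higher. BomS3, a short induced peptide, was the most abundant of the 9 at 13.0 and 13.2 CPM against 3.59 and 4.41. The antibacterial attacin gene AttB was at 1.37 and 1.36 CPM against 0.110 and 0.230, and AttA at 0.266 and 0.159 against 0 in both, where a count of 0 over the summed sample allows up to 0.0520 CPM. The 20 genes summed to 57.0 and 54.2 CPM against 36.3 and 35.9, and to 277 CPM in WT. Of 24 heat shock and chaperone genes, 2 were at least 2-fold higher and 1 lower (median -0.22). The lower count was 2 without the second Tektin-C-labelled or the first Klp59D-labelled library, and 9 with library size alone. The higher ones were Hsc70-1, at 100.2 and 103.9 CPM against 30.0 and 29.3, and Hsp60D, at 346 and 344 against 126 and 122. The lower one was Hsp70Bc, one of several near-identical copies, at 2.92 and 3.31 CPM against 6.74 and 7.47. Hsp83, the most abundant of the list, had a log2 fold of -0.23. Both samples grew at the same temperatures by their labels.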

How the data were processed

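Total RNA of whole testes was sequenced, per the labels' protocols, after ribosomal RNA depletion with a stranded kit. The deposited files hold raw counts per gene, whole numbers with no normalization. The tools named per the submitters' processing notes are STAR 2.5.1b and Trim Galore 0.4.1, with dm6 as the genome. How reads were assigned to genes (program, strand, reads with several matches, annotation) is not given in the sources used here, so values of overlapping, antisense or near-identical genes are uncertain. Gene symbols and positions were read from Ensembl release 115, on the same assembly, which named 17138 of 17412 identifiers. No sequences are shown.

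The 2 libraries of each group were summed. Genes passing filterByExpr over the 10 libraries (edgeR 4.0.16, R 4.3.3) were kept. The sums were scaled by TMM factors over the 5 groups (0.815 for the Tektin-C-labelled libraries, 1.11 for the Klp59D-labelled ones), and log2 CPM used a prior count of 2. Fold intervals come from the raw counts and effective totals of 47663574 and 57694802. A count of 0 allows up to 3 counts, 0.0629 and 0.0520 CPM. Intervals and floors cover counting error only, as reads have no molecular identifiers. A gene is called apart at 2-fold or more. The gene lists, members and rules were chosen with earlier results of these data known. Genes were named as the targeted genes, the 10 highest and 10 lowest named genes and the 5 highest and 5 lowest CG-numbered genes by log2 fold, at a mean log2 CPM of at least 4 and without overlap of libraries. From each list up to 5 members with the largest folds and up to 3 with the highest level were eligible. A few others are given for contrast. The steps were tested on simulated counts. Alternatives were other scalings, filters and prior counts, each library left out, and edgeR and DESeq2 1.42.0 with libraries as replicates.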

Additional observations from a re-analysis of the deposited data

How the results depend on the processing

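The comparison has 1 sample per group, and its intervals cover counting error alone. The 2937 genes at least 2-fold apart became 1891 (1439 higher, 452 lower) when only genes over 5 CPM in at least 2 libraries were kept, which leaves fewer genes to count (10604). They were 3600 with library size alone (1013 higher, 2587 lower), 3009 with RLE size factors, 2772 with the compared libraries alone, 3587 with no filter, 2926 without structural RNA and mitochondrial genes and 3065 at a prior count of 0.5. With each library left out in turn they were 2993 to 3021. With libraries taken as replicates, edgeR's quasi-likelihood test at an adjusted p under 0.05 and 2-fold gave 2926 and DESeq2 2800. A fit with the replicate number as a block gave 2938. Libraries of the same number deviated together in all pairs of groups (r of 0.0962 to 0.169 over 7795 genes, 0.144 in the groups compared), but with 2 numbers this does not establish pairing. Of the list medians recomputed, 68 moved and 534 did not. With library size alone every list median moved, and several changed sign. Of all genes called 2-fold apart, 1 turned its direction, without the second Tektin-C-labelled library. Of the single values of targeted genes, list members and extreme genes recomputed, 533 moved and 3560 did not. None of those genes that was called apart was reversed. Library size alone could hardly do so, as it moved the median of all genes only from -0.04 to -0.47.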

Other observations

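A few further lists were counted beside the 14.5% higher and 6.75% lower of all genes. Of 28 vacuolar ATPase subunits, 3 were at least 2-fold higher and 1 lower (1 and 5 with library size alone). Vha36-2 was at 259 and 258 CPM in the Tektin-C-labelled libraries and at 68.2 and 69.2 CPM in the Klp59D-labelled ones, with 2.38 CPM in the sa mutant. Of 6 Skp1-related genes SkpF was 2-fold higher, at 242 and 244 CPM against 93.8 and 91.0, and none was with library size alone. The 3 scpr genes, near-identical neighbours, were all at least 2-fold higher. They summed to 109.5 and 112 CPM against 35.4 and 35.1, far below the 9715 CPM of WT. Of 10 measured glutathione transferase D genes, 2 exceeded 2-fold upward and none downward, with a median log2 fold of 0.28, and of -0.12 with library size alone. GstD5 was at 42.1 and 45.5 CPM against 12.6 and 11.5, and at 475 CPM in WT.

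Among the genes at least 8-fold lower in the sa mutant than in WT, the X held 70, of which 40 (57.1%) were at least 2-fold higher in the Tektin-C-labelled libraries, against 66.2% to 75.6% on the arms of chromosomes 2 and 3. The difference was not tested. Of 3948 genes with at least 1000 counts in these sums, 8 differed between library 2 and library 1 in the same direction in all 5 groups by a log2 ratio over 0.15. They were 28SrRNA-Psi:CR45855, 7SLRNA:CR42652, RpS14a and CG15219, higher in library 2, and 28SrRNA-Psi:CR41609, 28SrRNA-Psi:CR40741, lncRNA:CR43157 and tHMG1, higher in library 1.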
